A study of Mus musculus with 6 samples.

Results

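The genes described here lie on mouse chromosome 11 on both sides of Hlf, the gene of the PAR bZIP transcription factor hepatic leukaemia factor, which was inactivated in the mice compared. The set was a fixed list of 58 genes out of 23574 genes counted. By RefSeq gene order, 16 lay before Hlf (towards lower coordinates) and 42 after it. Counting listed genes along the chromosome, the set ran from Rad51c, 41 genes before Hlf, to Smarce1, 163 genes after it. It took 58 of the 205 listed genes of that interval, Hlf included. The genes were chosen from those beside Hlf, with the knockout and wild-type counts of these same 6 libraries already known. Why these genes of the interval were taken and others left out is not recorded, nor whether measured values entered the choice. The differences between genotypes are therefore given as a description. Calls, p-values and counting intervals are printed beside them, but are not used as evidence about the set.

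The samples were 3 RNA libraries of Hlf knockout mice (labelled HLF KO) and 3 of wild-type littermates, all on C57BL/6. The input was 3000 haematopoietic stem cells, sorted as lacking lineage markers, CD34 and Flt3 and carrying Sca-1 and c-Kit. The labels do not give the age of the animals, the part of Hlf removed, the strain of the cells in which the allele was made, or whether each library came from its own animal. The spread between libraries may therefore be partly technical.

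Genes that sit close to a targeted gene are inherited together with it. Elsewhere in the genome littermates draw on the same parental copies whatever their genotype, but next to the target a knockout animal carries the copies that were targeted and a wild-type animal those that were not. A targeted insertion or deletion can also act on the transcription of neighbouring genes. With these libraries the loss of Hlf and the DNA linked to it cannot be told apart, since both differ between the same 2 groups.

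Start sites and the sequence around them were compared first, because neighbouring genes can share a promoter. RefSeq promoter windows (build GRCm38.p6, 250 bases before to 50 bases after the start) were found for 47 of the 58 genes. Stxbp4 and Cox11, the nearest 2 genes after Hlf, face away from each other, and their start sites lie 76 bases apart. Their windows share 175 bases, printed in capitals for each gene on its own strand, 5′ to 3′. The Stxbp4 window lies at chr11:90638059-90638358 on the minus strand, and the Cox11 window at chr11:90637934-90638233 on the plus strand.
Stxbp4: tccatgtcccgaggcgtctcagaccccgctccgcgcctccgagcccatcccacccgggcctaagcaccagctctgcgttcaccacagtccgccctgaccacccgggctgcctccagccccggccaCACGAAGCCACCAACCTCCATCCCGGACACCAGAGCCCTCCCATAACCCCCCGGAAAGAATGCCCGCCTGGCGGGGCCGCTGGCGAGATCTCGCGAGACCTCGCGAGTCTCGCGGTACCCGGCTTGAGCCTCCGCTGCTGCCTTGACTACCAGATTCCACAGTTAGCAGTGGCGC
Cox11: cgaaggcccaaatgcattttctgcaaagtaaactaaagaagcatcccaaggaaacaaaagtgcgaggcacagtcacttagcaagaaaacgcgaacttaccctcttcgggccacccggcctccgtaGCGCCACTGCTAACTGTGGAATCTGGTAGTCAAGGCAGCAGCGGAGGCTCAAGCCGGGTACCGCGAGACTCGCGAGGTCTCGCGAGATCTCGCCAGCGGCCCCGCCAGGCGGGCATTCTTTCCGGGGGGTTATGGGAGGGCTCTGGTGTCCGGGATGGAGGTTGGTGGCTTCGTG

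Rapgefl1 is shown because it had the largest difference between genotypes of the set. Its window lies at chr11:98836535-98836834 on the plus strand, with the 50 bases from the start site in capitals.
Rapgefl1: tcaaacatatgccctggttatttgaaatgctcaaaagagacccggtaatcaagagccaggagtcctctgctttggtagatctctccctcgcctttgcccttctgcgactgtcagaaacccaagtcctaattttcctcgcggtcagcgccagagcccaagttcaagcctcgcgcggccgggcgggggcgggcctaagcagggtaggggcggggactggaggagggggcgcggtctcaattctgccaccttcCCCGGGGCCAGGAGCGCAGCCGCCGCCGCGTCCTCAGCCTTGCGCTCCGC

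The windows were searched on both strands for TTACGTAA, the palindromic core bound by PAR bZIP factors, and for the looser TTANGTAA, which includes it. None of the 47 genes had TTACGTAA (0 genes), which was in 0.119% of all 32851 windows. TTANGTAA was in the window of 1 gene, Ankrd40, and in 2.32% of all windows. The 47 genes have 67 windows between them. The median GC content of the first window was 63.3% for these genes and 52.7% for all genes. The match begins 74 bases before the start site of Ankrd40 and is in capitals in the window at chr11:94327751-94328050, printed from the plus strand. It is a match on the minus strand, so the capitals, TTACATAA, fit TTANGTAA only when read as their reverse complement. These are matches of letters only, in windows of 300 bases, and describe no binding.
Ankrd40: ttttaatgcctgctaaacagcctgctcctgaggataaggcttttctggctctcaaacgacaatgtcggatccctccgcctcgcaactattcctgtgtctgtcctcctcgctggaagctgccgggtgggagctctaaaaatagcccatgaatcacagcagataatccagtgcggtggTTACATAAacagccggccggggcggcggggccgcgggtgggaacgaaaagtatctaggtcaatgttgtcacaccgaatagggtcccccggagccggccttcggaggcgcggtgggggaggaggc

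The libraries held 8346335 to 9902102 counts in wild type and 10182464 to 11998296 in knockout, with no overlap. Hlf, the targeted gene, was looked at as a check of the labels. It stood at 1366, 1658 and 1111 CPM (counts scaled to a common library size, corrected for library composition) in wild type and at 28.2, 37.5 and 37.2 CPM in knockout. It fell 40.2-fold (log2 fold change -5.33, SE 0.26, edgeR quasi-likelihood adjusted p = 1.9e-06). Of stem cell markers, 12 of 14 had counts, and their summed level was 1053 to 1135 CPM in wild type and 823 to 1006 CPM in knockout. Ly6a (Sca-1) was listed at 0 and Kit had 1 count in all. Both have several listed transcripts. Granulocyte-monocyte markers (9 of 10 with counts, S100a9 at 0) summed to 632 to 3353 CPM in wild type, highest in library 3, and to 326 to 483 CPM in knockout. B lymphoid markers (8 of 8) summed to 83.4 to 146 against 33.9 to 53.3 CPM, and megakaryocyte markers (5 of 5) to 308 to 502 against 708 to 915 CPM. For these 4 lists the sums did not overlap between genotypes, but each list held markers that did. Of the stem cell list, Gata2 had 472 to 586 CPM in wild type and 516 to 675 CPM in knockout. Mpo had 36.4 to 1368 against 56.7 to 136 CPM, Cd79b 18.2 to 58.9 against 27.5 to 52.4 CPM, and Vwf 92.2 to 223 against 77.6 to 227 CPM. The part of these lists in the values of the genes near Hlf was not tested. T lymphoid (3 of 6 with counts), erythroid (5 of 7, both globin genes at 0) and endothelial (4 of 4) sums overlapped between genotypes.

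Of the 58 genes, 48 passed the filter on low counts and 10 did not. Spata20, Calcoco2 and Skap1 were listed at 0 in all 6 libraries, which for 3 counts over all libraries allows up to 0.0503 CPM (counting error only). Nfe2l1, Akap1, Cuedc1, Spag9, Kat7, Nme2 and Rara had 1 to 34 counts in all. Of these 10, 8 have several listed transcripts. Of the 13 such genes in the set 5 passed, namely Dynll2, Srsf1, Msi2, Ankrd40 and Abi3. A low count of such a gene is not read as low expression. Nme2 had 34 counts over 6 libraries, and its neighbour and paralogue Nme1 had 807 to 3403 per library. How reads were shared between the pair was not tested, so both are uncertain.

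Higher and lower values were about equally frequent in the set. Of the 48 tested genes, 23 had higher and 25 lower values in knockout, where 47.2% of all 10204 tested genes had higher and 52.8% lower values. The median log2 fold change was -0.08, against -0.05 over all tested genes, 0.05 over the 57 tested genes of the interval that are not in the set, and -0.08 over the 733 tested genes elsewhere on chromosome 11. A difference of more than 1 log2 unit in either direction was seen for 10 of 48 genes and for 22.1% of all tested genes. After adjustment over the whole table edgeR called 0 of the 48 (0.0098% of all tested genes, which is Hlf alone). At an unadjusted p under 0.05 edgeR had 7 of the 48 (7.27% of all), 4 with higher values (2.63%) and 3 with lower values (4.65%). DESeq2 called 3 (1.54% of its genes), Rapgefl1 higher (0.516%) and Stxbp4 and Thra lower (1.02%). Without the filter on low counts edgeR called 1, Rapgefl1 (0.0614% of its genes). The list was chosen with this contrast known, so nothing is read from these counts.

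**Figure D1:**
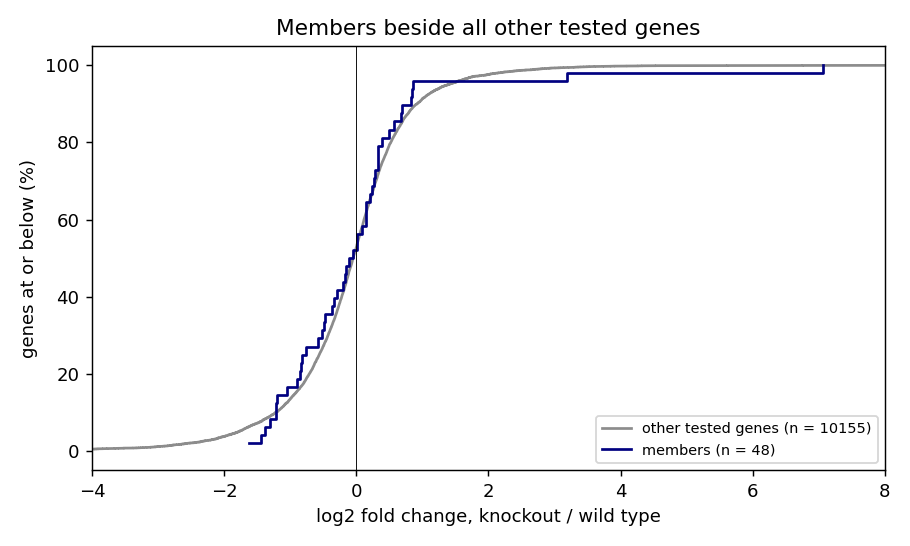
Cumulative share of genes (%) against the log2 fold change of knockout over wild type, for the 48 tested genes near Hlf and for 10155 other tested genes (the axis is limited to -4 to 8). The 2 curves run close together between -1 and 1, and Rad51c (3.18) and Rapgefl1 (7.06) form the upper steps of the set.

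Of the genes immediately beside Hlf, Stxbp4 had lower values in every knockout library and Mmd overlapped between genotypes. Stxbp4, which encodes a syntaxin-binding protein of vesicle traffic, is the first gene after Hlf. It stood at 295, 152 and 199.7 CPM in wild type and at 90.1, 95.1 and 61.4 CPM in knockout. All 3 knockout libraries lay below all 3 wild-type ones, at 82.2 ± 18.2 against 216 ± 73.1 CPM (SD, n = 3), a 2.62-fold lower level (log2 fold change -1.39, SE 0.33). In bulk RNA, fewer cells that use a gene and less of its RNA per cell cannot be told apart. Mmd, which encodes a membrane protein known from macrophage differentiation, is the first gene before Hlf. Its values were 40.6, 0.311 and 17.6 CPM in wild type and 21.4, 35.6 and 29.7 CPM in knockout. Wild-type library 2 was far below the rest. The difference of 0.57 (SE 1.05) lay between -0.0031 without that library and 1.71 without wild-type library 1.

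Cox11, the copper chaperone of cytochrome c oxidase that shares its promoter stretch with Stxbp4, stood at 18.4, 30.2 and 41.4 CPM in wild type and at 13.7, 19.9 and 9.67 CPM in knockout. The highest knockout library (2) lay above the lowest wild-type library (1), so the genotypes overlapped. The means were 30.0 ± 11.5 and 14.4 ± 5.16 CPM (SD, n = 3), a log2 fold change of -1.06 (SE 0.65). Both genes of the divergent pair had lower mean values in knockout, Cox11 with overlap, and a part of the shared stretch in this was not tested. Tom1l1, an endosomal sorting adaptor whose gene overlaps Cox11 on the other strand, had 43.5, 10.3 and 31.7 CPM in wild type and 26.7, 50.8 and 43.1 CPM in knockout. It overlapped between genotypes (0.50, SE 0.61). Leaving out wild-type library 2 gave 0.10, and leaving out wild-type library 1 gave 0.95. Since the use of strand in counting is not given, reads from the shared part of Cox11 and Tom1l1 cannot be told apart. The same limit holds for every gene of the set that overlaps a gene on the other strand. There are 16 such genes, 7 of them with a protein-coding partner, such as Lrrc59 with Eme1 and Acsf2 with Chad.

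The next genes after this group are Utp18, of the nucleolar complex that processes ribosomal RNA, and Mbtd1, a methyl-lysine reader of chromatin. Utp18 had 23.1, 38.3 and 48.6 CPM in wild type and 41.6, 36.9 and 48.8 CPM in knockout. Mbtd1 had 327, 315 and 194 CPM in wild type and 158, 237 and 206 CPM in knockout. Both overlapped between genotypes, with log2 fold changes of 0.21 (SE 0.48) and -0.48 (SE 0.28). That of Utp18 was -0.02 without wild-type library 1 and 0.47 without wild-type library 3.

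On the other side, Pctp and Dgke, both enzymes or carriers of membrane lipids, had lower mean values in knockout. Pctp, the phosphatidylcholine transfer protein, stood at 57.2, 18.8 and 35.5 CPM in wild type and at 11.6, 22.6 and 13.5 CPM in knockout, with overlap through wild-type library 2 and knockout library 2 (-1.22, SE 0.63, and -0.76 without wild-type library 1). Dgke, a diacylglycerol kinase, stood at 13.7, 23.0 and 47.6 CPM in wild type and at 9.49, 24.0 and 2.76 CPM in knockout. Its difference of -1.22 (SE 0.86) ranged from -2.19 without knockout library 2 to -0.61 without wild-type library 3. The genotypes overlapped for Dgke as well, with knockout library 2 above 2 of the wild-type libraries.

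Trim25, a ubiquitin ligase of antiviral signalling, had 119.9, 336 and 305 CPM in wild type and 208, 168 and 307 CPM in knockout (-0.16, SE 0.37). Coil, the scaffold of Cajal bodies, had 7.36, 24.0 and 32.6 CPM in wild type and 20.9, 21.0 and 22.4 CPM in knockout (0.01, SE 0.69). Wild-type library 1 was the lowest of all 6 for both genes, and both overlapped. The sign of both differences changed when single libraries were left out, from -0.48 to 0.11 for Trim25 and from -0.38 to 0.46 for Coil.

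**Figure D2:**
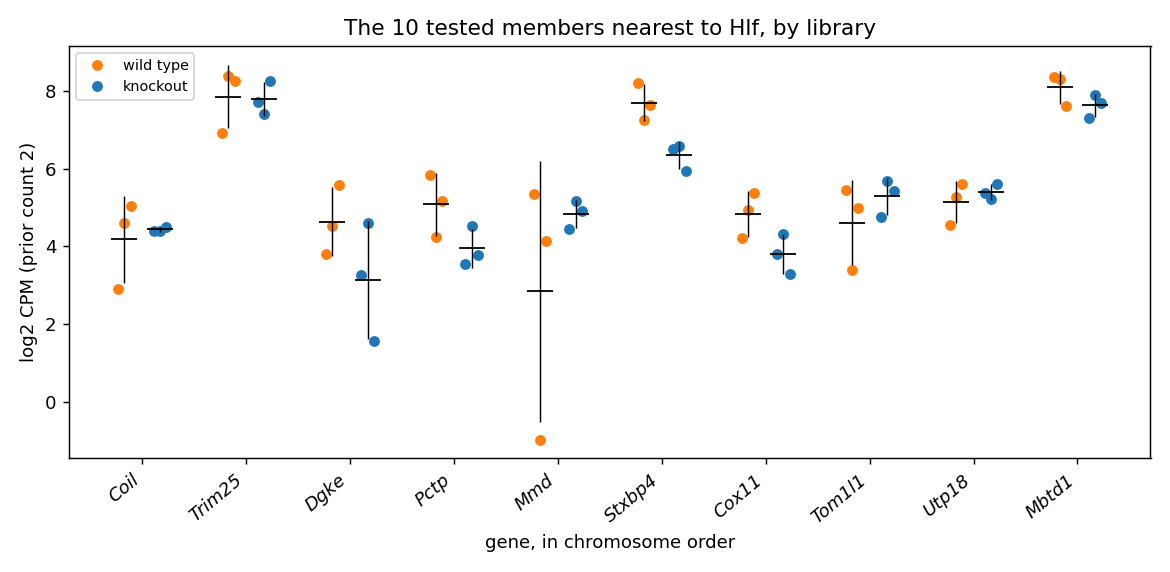
Log2 CPM (prior count 2) of the 10 tested genes of the set nearest to Hlf, in chromosome order, with each library as a point and the mean and SD of 3 libraries as bars. Stxbp4 is the gene of the 10 whose wild-type and knockout points do not overlap, and Mmd has 1 wild-type point far below the rest.

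Distance in gene order was then set against the differences. Among the 10 tested genes nearest to Hlf, which are all in the set, the median log2 fold change was -0.32, with 4 positive and 6 negative. Among the nearest 20 it was -0.05, among the nearest 50 -0.02 and among the nearest 100 -0.11. Without wild-type library 1 the median of the nearest 20 was -0.27, and without wild-type library 3 it was 0.11. Genotypes did not overlap for 1 of the nearest 10, 2 of 20, 8 of 50 and 20 of 100 genes, where 14.4% of all tested genes do not overlap. Of the nearest 20, 3 are outside the set. Tob1, an antiproliferative factor, stood at -0.04 (SE 0.49), the non-coding RNA gene C030037D09Rik at 0.95 (SE 0.85), and the row of Mir378b, which lies within Msi2, at 0.45 (SE 1.22). The genotypes overlapped for all 3.

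Within the set, the size of the difference and the distance were set side by side. Spearman's rho between the absolute log2 fold change and the number of genes from Hlf was 0.05 over 14 genes before Hlf and -0.06 over 34 genes after it. These points share the same 6 libraries, and values near 0 are no finding here. Before Hlf, the nearer 7 genes had a median of -0.49 and the farther 7 a median of 0.15. After it, the nearer 17 had 0.08 and the farther 17 had -0.17. The largest differences of the set were those of Rad51c, at 41 genes from Hlf, and Rapgefl1, at 154 genes. Both had few counts in wild type and passed the filter through their knockout libraries. Differences of more than 1 log2 unit were also seen close to Hlf, for 4 of the nearest 10 tested genes (40%), all lower in knockout. The share was 20% of the nearest 20, 26% of the nearest 50, 24% of the nearest 100 and 22.1% of all tested genes. No reason for the ends of the set is recorded, and the tested genes just outside were Ppm1e and Krt222. Ppm1e, 42 genes before Hlf, had 362 to 530 counts in wild type and 82 to 134 in knockout (-2.43, SE 0.56). Krt222 lay 164 genes after Hlf (-2.55, SE 1.99).

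**Figure D3:**
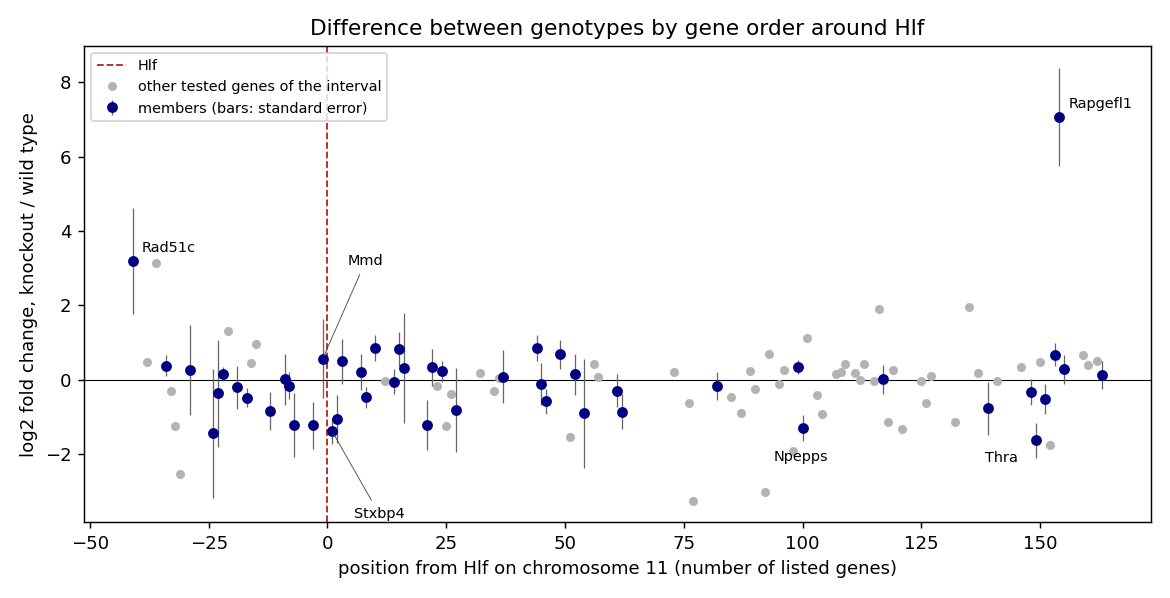
Log2 fold change of knockout over wild type against position in gene order from Hlf (number of listed genes, negative before Hlf), with standard errors for the genes of the set and grey points for the 57 other tested genes of the interval. The nearest 10 tested genes lie between -1.39 and 0.57, and Rapgefl1 stands highest at 7.06.

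In 11 of 48 genes the 3 libraries of one genotype lay wholly above the other, beside 14.4% of all tested genes, 7 with higher values in knockout (7.52% of all tested genes) and 4 with lower values (6.85%). The count was 17 without wild-type library 1 and 19 without wild-type library 3, where 25.8% and 30% of all tested genes had no overlap. Rapgefl1, named for its likeness to exchange factors of the small GTPase Rap, was counted 0, 3 and 2 times in wild type. In knockout it was counted 382, 64 and 433 times. Knockout library 2 stood apart from the other knockout libraries, at 6.01 CPM against 34.8 and 37.4 CPM, and still lay far above the wild type. Scaled by library totals, the summed knockout counts were 146 times the wild-type ones. The 95% exact interval of this ratio, 62.2 to 449.8, reflects counting error alone, and the fitted log2 fold change was 7.06 (SE 1.33). It lay between 6.57 and 7.69 with any 1 library left out. Rapgefl1 passed the filter on low counts through its knockout libraries.

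The 2 neighbours of Rapgefl1 had far smaller differences. Casc3, a core protein of the exon junction complex and the gene directly before Rapgefl1, stood at 71.4, 69.2 and 92.3 CPM in wild type and at 137, 124 and 111 CPM in knockout, with no overlap (0.68, SE 0.31). Wipf2, the actin regulator directly after it, had 132, 179.9 and 65.1 CPM in wild type and 181, 103 and 175 CPM in knockout. Its genotypes overlapped (0.28, SE 0.39), and the difference lay between -0.02 without wild-type library 3 and 0.64 without wild-type library 2.

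Rad51c, a gene of homologous recombination, was counted 27, 0 and 16 times in wild type and 104, 135 and 291 times in knockout. Every knockout library was higher, at 9.49, 12.7 and 25.1 CPM against 3.43, 0 and 1.77 CPM. The ratio of summed counts, scaled by library totals, was 10.2 (95% exact counting interval 7.48 to 14.3), and the fitted log2 fold change was 3.18 (SE 1.43), between 2.61 and 4.16 with 1 library left out. It too passed the filter through its knockout libraries.

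Apart from Rapgefl1 and Rad51c, the genes whose knockout libraries were all higher differed by less than 1 log2 unit. Fam117a had 106, 48.3 and 75.8 CPM in wild type and 141, 127 and 146 CPM in knockout (0.85, SE 0.35). Kpnb1, the importin that carries proteins into the nucleus, had 507, 558 and 549 CPM in wild type and 665, 752 and 612 CPM in knockout (0.33, SE 0.19). Supt4a, a subunit of the elongation factor DSIF, had 114, 116 and 111 against 134, 165 and 146 CPM (0.38, SE 0.27). Its wild-type libraries lay within 5 CPM of each other. Vezf1, a zinc finger transcription factor known from vessels, had 342 to 406 CPM in wild type and 410.0 to 438 CPM in knockout (0.15, SE 0.20, and 0.08 without wild-type library 3), so the ranges nearly touched.

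Thra, the thyroid hormone receptor alpha, had the lowest log2 fold change of the set. It stood at 69.4, 91.9 and 66.5 CPM in wild type and at 20.1, 15.8 and 37.8 CPM in knockout, without overlap. The means were 75.9 ± 13.9 and 24.6 ± 11.7 CPM (SD, n = 3), 3.09-fold lower (log2 fold change -1.63, SE 0.48, between -2.07 and -1.38 with 1 library left out). Thra overlaps Nr1d1, a clock repressor transcribed from the other strand. In raw counts, not scaled for library size, Nr1d1 had 136, 96 and 119 in wild type and 239, 107 and 285 in knockout. Its fitted log2 fold change was 0.48 (SE 0.74). Reads from the shared part of Thra and Nr1d1 cannot be told apart here.

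Npepps, a cytosolic aminopeptidase that lies directly after Kpnb1, stood at 315, 255 and 123 CPM in wild type and at 76.9, 112 and 92.3 CPM in knockout. Every knockout library was lower (-1.30, SE 0.35, between -1.60 and -0.999 with 1 library left out), while its neighbour Kpnb1 was higher in every one. Scpep1, a serine carboxypeptidase, stood at 39.0, 60.8 and 38.6 CPM in wild type and at 29.6, 16.3 and 31.0 CPM in knockout (-0.84, SE 0.51). Its genotypes did not overlap either.

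**Figure D4:**
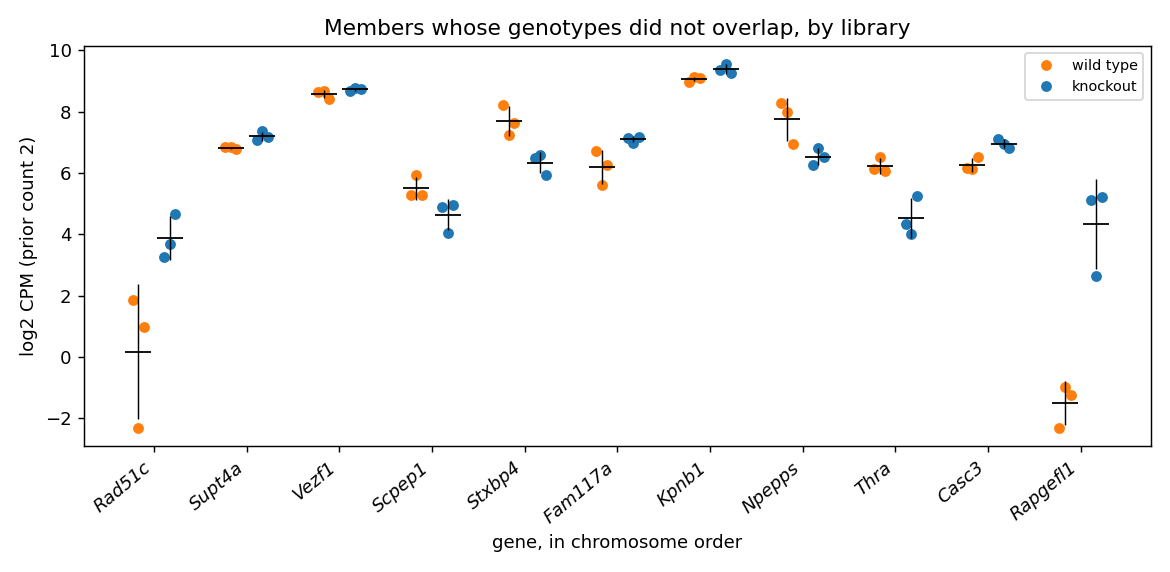
Log2 CPM (prior count 2) of the 11 genes of the set whose genotypes did not overlap, in chromosome order, with each library as a point and mean and SD of 3 libraries as bars. Rapgefl1 and Rad51c show gaps of several log2 units, and Vezf1, Supt4a and Kpnb1 gaps of a fraction of a unit.

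By role, 7 of 9 tested genes of protein turnover and transport had lower values, where 52.8% of all tested genes did. Their median was -0.58. The role lists were made with the results known, so no theme is read from them. In this group the ubiquitin ligase adaptor Spop and the ubiquitin-conjugating enzyme Ube2z stood at -0.58 (SE 0.34) and -0.86 (SE 0.47). Both rested on wild-type library 1, the highest of 6 at 460.3 and 203 CPM, and without it were -0.09 and -0.17. The ESCRT subunit Snf8 stood at -0.30 (SE 0.44), at 0.17 without the same library and at -0.51 without wild-type library 2.

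Genes of transcription and chromatin had 4 positive and 6 negative values of 10 tested, with a median of -0.25. Thra, Vezf1 and Supt4a are described above, and the others, Mbtd1 included, overlapped between genotypes. Ikzf3 (Aiolos, a lymphoid zinc finger factor) stood at -0.77 (SE 0.72), which became -0.09 with wild-type library 2 left out. The heterochromatin protein gene Cbx1 stood at -0.17 (SE 0.38), or at -0.06 without knockout library 3 and -0.29 without wild-type library 3. Zfp652, a zinc finger gene, stood at 0.14 (SE 0.54), between -0.29 without knockout library 1 and 0.61 without wild-type library 2. The chromatin remodelling subunit Smarce1 stood at 0.14 (SE 0.37), or at -0.18 without wild-type library 1 and 0.41 without wild-type library 3. Msl1, of a histone acetyltransferase complex, had a value of -0.53 (SE 0.40), or -0.09 when wild-type library 1 was left out and -0.98 when knockout library 3 was. The Mediator subunit Med24 stood at -0.33 (SE 0.34) and came to 0.05 without wild-type library 2 and -0.53 without wild-type library 3.

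Genes of RNA binding and processing were split 3 and 3, with a median of -0.02. Msi2, an RNA-binding protein known from haematopoietic stem cells, had 1343, 1135 and 736 CPM in wild type and 800.3, 579 and 917 CPM in knockout, with overlap (-0.49, SE 0.25, and -0.27 without wild-type library 1). Of its 2 listed transcripts, 1 held 53702 counts and the other 47. The splicing factor genes Luc7l3 and Srsf1 stood at -0.05 (SE 0.33) and -0.37 (SE 1.43), the latter on 113 counts in all. Both turned positive when 1 library was left out, to 0.44 for Luc7l3 (wild-type library 1) and 1.04 for Srsf1 (wild-type library 3). Without wild-type library 2 they were -0.25 and -0.77.

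Mitochondrial genes had 3 positive and 2 negative values of 5 tested. Phb, the inner membrane scaffold prohibitin, had 80.6, 284 and 127 CPM in wild type and 307, 251 and 233 CPM in knockout. Wild-type library 2 lay among the knockout libraries (0.68, SE 0.40). The difference was 1.35 without that library and 0.37 without wild-type library 1. The acyl-CoA synthetase Acsf2 stood at 0.33 (SE 0.49), the kinase of pyruvate dehydrogenase Pdk2 at 0.08 (SE 0.72) and the mitochondrial ribosomal protein gene Mrps23 at -0.20 (SE 0.59). With 1 library left out, Acsf2 came to 0.03 (knockout library 2) or 0.82 (wild-type library 3), Pdk2 to -0.32 (wild-type library 3) or 1.40 (wild-type library 2), and Mrps23 to 0.10 (wild-type library 3) or -0.59 (wild-type library 1).

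Of lipid, nucleotide and membrane genes 2 of 6 tested were positive. Nme1, a nucleoside diphosphate kinase, had 121, 83.7 and 199 CPM in wild type and 241, 319.6 and 173 CPM in knockout. Knockout library 3 lay below wild-type library 3, so the genotypes overlapped (0.86, SE 0.35). Nme2 was below the filter, with 0.254, 1.14 and 0.331 against 0.365, 0.282 and 0.950 CPM. The transporters Abcc3 and Slc35b1 stood at 0.32 (SE 1.47) and -0.10 (SE 0.56), and the xylosyltransferase Xylt2 at -0.82 (SE 1.12). All 3 changed sign with 1 wild-type library left out, Abcc3 to -0.25 and Xylt2 to 0.96 without library 2 and Slc35b1 to 0.34 without library 1. At the other end they were 1.34 for Abcc3 (without library 3), -1.26 for Xylt2 (without library 1) and -0.41 for Slc35b1 (without library 2).

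Signalling and cytoskeletal genes other than Rapgefl1 overlapped between genotypes. Dynll2, a dynein light chain, was counted 95, 2 and 4 times in wild type and 2, 31 and 18 times in knockout. Its difference of -1.44 (SE 1.74) turned to 2.23 without wild-type library 1 and was -2.26 without knockout library 2. Abi3, an actin regulator, stood at -0.90 (SE 1.45), between -2.66 without knockout library 3 and -0.38 without knockout library 1. Lasp1, an actin-binding adaptor, stood at 0.02 (SE 0.38), between -0.28 without wild-type library 1 and 0.45 without wild-type library 2. Mks1, a gene of the cilium that was grouped with Rad51c, stood at 0.26 (SE 1.22), with 1.97 to 11.8 CPM in wild type and 2.94 to 16.9 CPM in knockout. It turned to -1.03 without knockout library 2 and was 1.05 without wild-type library 3.

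Among the remaining genes, Ankrd40, the one with the TTANGTAA match, had 69.7, 28.3 and 34.3 CPM in wild type and 54.8, 90.4 and 89.4 CPM in knockout (0.83, SE 0.46, and 1.34 without wild-type library 1). Its genotypes overlapped through wild-type library 1 and knockout library 1. Rsad1 had 54.8, 14.6 and 54.4 against 9.12, 17.9 and 26.6 CPM (-1.21, SE 0.67), with overlap through wild-type library 2. Lrrc59, a protein of the endoplasmic reticulum, stood at 0.23 (SE 0.29) and came to -0.06 without knockout library 1 and 0.38 without knockout library 3.

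Wild-type libraries spread more widely than knockout libraries, in the set and over all tested genes. The SD of log2 CPM was larger in wild type than in knockout for 38 of 48 genes, against 70.7% of all tested genes. Its medians in wild type and knockout were 0.73 and 0.41 log2 units in the set, and 0.75 and 0.46 over all tested genes. Wild-type library 2 was the lowest of the 6 for 15 of the 48 genes (21.0% of all tested genes). Wild-type library 1 was the highest for 15 (24.3% of all).

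**Figure D5:**
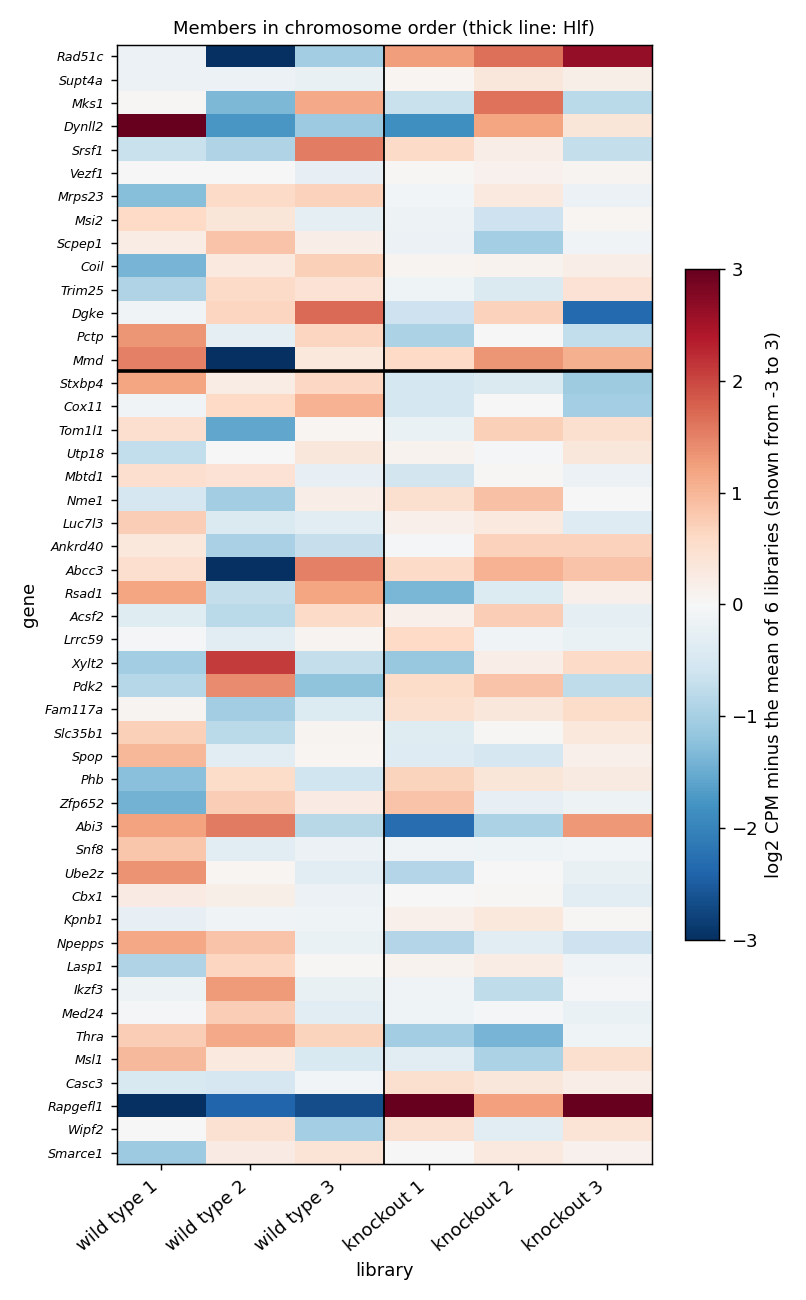
Log2 CPM of each of the 48 tested genes minus its mean over 6 libraries (colour, shown from -3 to 3), in chromosome order with a thick line at Hlf. Rows such as Stxbp4, Thra and Rapgefl1 differ in colour between the 3 wild-type and 3 knockout columns, while 11 of the 48 rows in all have no overlap between genotypes.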

How the data were processed

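Each library's deposited file lists RefSeq transcripts with raw read counts. Per the submitters' processing notes, TopHat and mouse build mm9 were used. The sources used here do not name the counting tool or say whether strand was used. Of 30858 transcripts, 30363 were named by a RefSeq table of GRCm38.p6 and 179 by GENCODE, and 316 kept their accession. Because the builds differ, RefSeq gave names, gene order and promoter windows, and distances from Hlf are in genes, not bases. GENCODE strands were used for orientation. Counts were summed per gene.

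edgeR 4.0.16 (R 4.3.3, TMM, filterByExpr with minimum count 10 and total 15, robust quasi-likelihood F test) compared knockout with wild type over 6 libraries. P-values were adjusted by Benjamini-Hochberg over 10204 genes, with 0.05 as threshold. Standard errors came from the F statistic. DESeq2 1.42.0 on all genes, other size factors and filters, genes with 1 transcript, left-out libraries and a replicate block were alternatives. The edgeR fit was tested on simulated counts of 10204 genes, with 50 better expressed genes changed at each fold size. It recovered 2 of 50 at 2-fold, 26 at 4-fold, 40 at 8-fold and 43 at 16-fold, with 12 false calls. A gene that edgeR did not call is therefore not read as unchanged.

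Members and lists were chosen with earlier results of these data known. Genes named are the nearest 5 tested per side, Nme1, Nme2 and the 6 largest differences per direction. Genes without overlap between genotypes were added after their values were seen, and the rest are given by role.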

Additional observations from a re-analysis of the deposited data

How the results depend on the processing

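The number of genes of the set called was 0 by edgeR (1 of 10204 genes in all), 3 by DESeq2 (170 of 11036) and 1, Rapgefl1, by edgeR without the filter on low counts (9 of 14669). Leaving out 1 library, the median log2 fold change of the set ran from -0.21 to 0.0063. The former was without knockout library 2 (beside -0.05 over all genes), the latter without wild-type library 2 (beside -0.0046). The number of genes without overlap ran from 12 to 19 of 48. It was 12 without knockout library 1 (25%, beside 22.4% of all tested genes). It was 19 without wild-type library 3 (39.6%, beside 30% of all tested genes). The median of the nearest 20 genes ran from -0.27 to 0.11. That median was -0.32 for the nearest 10. With the replicate number as a block, the median of the set was 0.079, the median of all genes moved from -0.05 to 0.056, and 0 genes of the set were called. Same-numbered libraries did not deviate together (correlations -0.01, -0.02 and 0.02), and 1 of 3 wild-type libraries matched best with its own number, so the block stands for no known pairing. The sign of the difference was the same in all alternatives that gave a value for 28 of 48 genes and changed in at least 1 of 12 alternatives for 20. Hlf kept its direction and its call under every alternative run. The median standard error of 0.47 log2 units over 3 libraries per genotype limits the differences that can be told from the spread.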
